A study of Homo sapiens with 9 samples.

Results

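Parental A431 cells are the unmodified starting line of the study, an established human epidermoid carcinoma line that grows as an epithelial sheet and carries endogenous mutant p53. They were represented by 3 RNA-seq libraries of the 9 in the series, chosen by their labels alone. The cells were kept in high-glucose medium with serum and harvested 48 h after they had settled, without gene editing, selection or co-culture. The series as a whole asked how loss of mutant p53 alters A431 cells. Its remaining 6 libraries, from p53 KO and Ctrl cells, entered no value given here. All values describe a single cell line in culture, and whether the 3 libraries came from separate cultures was not stated, so errors are the spread between these libraries and may be technical.

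A squamous epithelium is renewed from a basal layer, whose cells hold on to the basement membrane through laminin-binding integrins and fill their cytoplasm with the keratin pair K5 and K14. Cells that leave that layer switch keratins and finally build a cornified envelope from loricrin, filaggrin and small proline-rich proteins. The master regulator of this lineage is p63, a relative of p53. A431 is best known for its epidermal growth factor receptor, EGFR, a receptor tyrosine kinase that responds to TGFα, amphiregulin and related ligands.

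The libraries held 26280390, 25870156 and 21512265 counts assigned to genes in parental replicates 1, 2 and 3. Levels are given in CPM, counts per 1000000 counts of the library, which suits a gene followed between libraries. Levels of different genes are compared in TPM, in which counts were first divided by the length of the annotated exons of the gene and then scaled to the same total in each library. A gene was taken as expressed at 1 CPM or more in each of the 3 libraries, which equals 22 to 26 reads. Values are mean ± SD with n = 3 unless single libraries are given. A gene without a count in a library can still have been present there at up to 0.114 to 0.139 CPM, the level of 3 counts, and such limits cover counting error only.

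Of 58051 genes in the table, 12153 were expressed, 11550 had counts below that level, and 34348 had no count in any of the 3 libraries. Among 19629 protein coding genes, 10950 (55.8%) were expressed and 5455 (27.8%) had no count, and these shares are the background for every gene list below. The median expressed protein coding gene stood at 28.4 TPM, with an interquartile range of 11.0 to 68.9 TPM. Only 81 nuclear protein coding genes reached 1000 TPM, and these together made up 17.7% of the summed TPM. Long noncoding RNAs were mostly silent, with 660 of 14157 expressed, and they held 0.796% ± 0.0071 of the counts. The transcriptome was moderately concentrated, since 902 genes held 50% of the counts and 5362 held 90%.

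The most abundant gene by counts was EGFR itself. EGFR (ENSG00000146648, GRCh38 chr7:55019017-55211628, plus strand) received 452758, 373211 and 347317 counts, which corresponded to 17228, 14426 and 16145 CPM. It was the highest gene in each library by a wide margin, its lowest library lying above the highest library of the second gene, ACTB, at 9653 CPM. EGFR alone took 1.59% ± 0.14 of all counts. Part of this count follows from the length of the transcript, because after division by length EGFR ranked 13 at 4344 ± 531 TPM, behind ACTB at 9232 ± 611 TPM and behind several mitochondrial transcripts. Its 3 libraries ran at 4827, 3776 and 4431 TPM, so replicate 2 was the lowest.

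Behind EGFR and ACTB, which encodes cytoplasmic β-actin, the list of abundant genes was made up of housekeeping machinery. Chaperones were represented by HSP90AB1 at 6233 ± 71.5 CPM, HSPA8 at 3819 ± 21.0 CPM and HSP90AA1 at 2594 ± 73.6 CPM, which encode constitutive HSP90β, HSC70 and HSP90α. Translation factors included EEF1A1 at 6055 ± 228 CPM, which delivers aminoacyl-tRNA to the ribosome, and EEF2 at 3933 ± 142 CPM, which drives translocation. PABPC1, the cytoplasmic poly(A)-binding protein, reached 3965 ± 92.5 CPM and EIF4G1, the scaffold of the cap-binding complex, 2257 ± 155 CPM. The remaining members of the top 25 were GAPDH, RPL32, TUBB, MT-CO1, MT-RNR2, PTMA, PKM, KRT8, ENO1, MT-CO3, NCL, NPM1, HNRNPA2B1, LDHA, RPS2 and ACTG1. KRT8, a keratin of simple epithelia, was the only keratin among them, at 2940 ± 47.4 CPM. The 10 most abundant genes held 6.14% ± 0.17 of the counts and the 100 most abundant 19.5% ± 0.33.

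**Figure D1:**
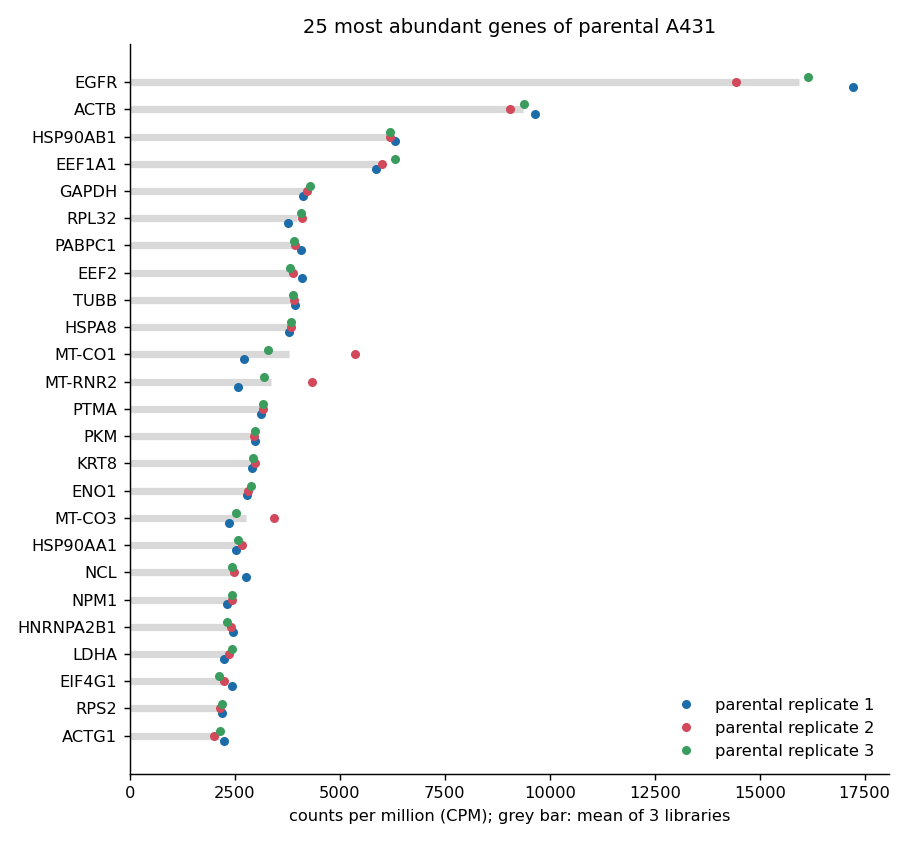
CPM (horizontal axis, from 0) of the 25 most abundant genes, with a point for each of the 3 parental libraries and a grey bar at their mean. EGFR lies between 14426 and 17228 CPM, above ACTB in every library, and the mitochondrial genes MT-CO1, MT-RNR2 and MT-CO3 have replicate 2 far to the right of the other libraries.

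Genes of the ribosome took 4.60% ± 0.16 of the counts, and 84 of 88 ribosomal protein genes were expressed. The set was matched by symbol and includes relatives such as RPL7L1 and RPL39L. Some members were low, with 149, 150 and 113 counts for RPL36A and 439, 514 and 422 for RPS10. Whether these low values come from the cells or from the counting was not tested. Messenger RNAs of ribosomal proteins are known for a pyrimidine run at the very start of the transcript, by which their translation is regulated together. The run was looked for as a C at the annotated start followed by at least 4 bases that were each C or T, on the transcribed strand, in the RefSeq promoter table for GRCh38.p14. It was present in 44 of the 67 expressed ribosomal protein genes that the table holds (65.7%) and in 15.6% of the 64 matched genes among the remaining top 100. The share was 5.62% of the 8655 matched expressed protein coding genes and 4.04% of all 27305 promoters. A match describes the annotated start only and was not tested for a role in these libraries. Windows of 15 bases before and 15 bases from the start are shown for the 2 elongation factors and the 5 most abundant ribosomal protein genes with the run, which is in capitals, and for EGFR, which lacked it. They lie at chr6:73521018-73521047 (minus strand, EEF1A1), chr19:3985449-3985478 (minus, EEF2), chr12:120201097-120201126 (minus, RPLP0), chr9:19380222-19380251 (minus, RPS6), chr19:49487593-49487622 (plus, RPL13A), chr11:75399503-75399532 (plus, RPS3), chr9:133348203-133348232 (plus, RPL7A) and chr7:55019002-55019031 (plus, EGFR).
EEF1A1: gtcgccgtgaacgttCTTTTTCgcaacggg
EEF2: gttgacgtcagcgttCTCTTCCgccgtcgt
RPLP0: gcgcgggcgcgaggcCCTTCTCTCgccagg
RPS6: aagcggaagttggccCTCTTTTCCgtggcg
RPL13A: cgacaaaacctcctcCTTTTCCaagcggct
RPS3: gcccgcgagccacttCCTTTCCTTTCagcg
RPL7A: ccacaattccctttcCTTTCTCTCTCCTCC
EGFR: cggcccgcgcgagctagacgtccgggcagc

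Mitochondrially encoded transcripts were where the libraries differed most. They took 1.39% of the counts in replicate 1 (95% Wilson interval 1.39 to 1.40), 2.70% in replicate 2 (2.70 to 2.71) and 1.59% in replicate 3 (1.59 to 1.60). Replicate 2 thus stood apart by far more than counting error. MT-ND5, a subunit of respiratory complex I, had 10849, 29190 and 9474 counts, the second-largest coefficient of variation (61.4%) of any gene at 10 CPM or more. The ribosomal RNA gene MT-RNR1 moved less, with replicate 2 at 1.37 times the mean of the other libraries against 2.64 times for MT-ND5. By length, MT-CO3 at 15252 ± 2590 TPM, MT-CO1 at 10559 ± 3476 TPM and MT-CO2 at 10303 ± 3131 TPM had the highest means of all genes. They encode the core subunits of cytochrome c oxidase. MT-CO1 and MT-CO2 had 14475 and 13889 TPM in replicate 2. In replicate 1 they had 7842 and 8114 TPM, below ACTB at 9787 TPM. When the longest transcript was used as the length, ACTB passed MT-CO3, and GAPDH passed MT-CO1 and MT-CO2.

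Nuclear genes were far more alike between libraries. The common biological coefficient of variation, edgeR's estimate of the spread beyond counting error, was 5.60% over 13422 genes and 5.20% when mitochondrial genes were left out, an alternative added after seeing the data. Of 9126 genes at a mean of 10 CPM or more, 8482 (92.9%) had a coefficient of variation under 10% and 42 had more than 25%. Of these 42, 12 were mitochondrially encoded and 2 were nuclear copies of mitochondrial genes, MTND2P28 and MTATP6P1, whose reads cannot be told apart from the mitochondrial originals with certainty. The other 28 were long genes, with a median longest transcript of 16537 bases against 4061 bases for all genes at that level. All 28 were highest in replicate 1 and lowest in replicate 2. SYNE2, which links the nucleus to the cytoskeleton, had 1572, 561 and 1026 counts, and MDN1, a ribosome assembly ATPase, had 4415, 1844 and 2668 counts. AHNAK, a giant scaffold protein, ran at 24242, 10808 and 15163 counts.

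Replicates 1 and 2 were tilted by length across the nuclear genes at a mean of 10 CPM or more. In the shortest decile of genes, replicate 1 was lower than the gene's own mean by a median log2 difference of -0.04, and in the longest decile it was higher by 0.06. Replicate 2 ran the opposite way, from 0.02 to -0.06, mostly in the longest classes. Replicate 3 showed no steady trend, with 0.02 in the shortest decile and 0.01 in the longest. EGFR, with a longest transcript of 9905 bases, falls in the longest decile and shared the order of the libraries, highest in replicate 1 and lowest in replicate 2. The part of transcript length or RNA quality in the spread of EGFR was not tested.

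**Figure D2:**
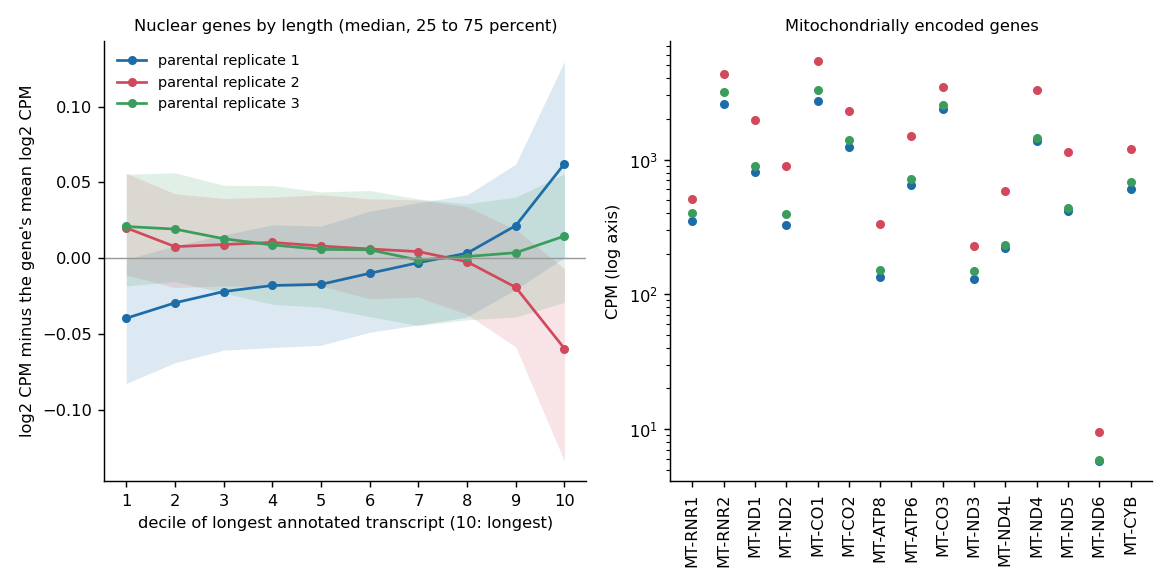
Left, log2 CPM minus the gene's own mean, as the median (line) and the interquartile range (band). Genes are nuclear ones at a mean of 10 CPM or more, in 10 classes ordered by longest transcript. Right, CPM on a log axis of the mitochondrially encoded ribosomal RNA and protein genes. Replicate 2 lies at the top for every mitochondrial gene shown and falls to a median of -0.06 in the longest class, where replicate 1 rises to 0.06.

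The lineage of the cells was epithelial. Of the 83 genes on the epithelial lists, 59 (71.1%) were expressed, beside 55.8% of all protein coding genes. These lists hold squamous genes, but also general junction genes and 5 keratins of simple epithelia, so the share is not one of squamous genes alone. The junction list was complete, all 19 members being expressed. EPCAM, an epithelial adhesion molecule, led it at 738 ± 48.6 TPM. Plakoglobin, the junction protein encoded by JUP, followed at 453 ± 19.1 TPM, and the desmosomal plakophilin PKP3 at 285 ± 12.6 TPM. The E-cadherin gene CDH1 stood at 254 ± 15.9 TPM, above the P-cadherin gene CDH3 at 197 ± 11.5 TPM, and their libraries did not overlap. DSG3, a desmosomal cadherin of the lower layers of stratified epithelium, was the lowest member at 11.7 ± 0.68 TPM. DSG1 and DSC1, desmosomal cadherins of the differentiated layers and members of the cornified layer list, had no count.

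Among keratins, KRT13, KRT18 and KRT8 were the highest. KRT13, normally a keratin of suprabasal cells in non-cornified mucosa, had 2505, 2426 and 2736 TPM. KRT18, the type I partner of K8, had 2208, 2038 and 2112 TPM, and KRT8 itself 1879, 1813 and 1866 TPM. The order of the 3 depends on the length used, since KRT8 rose to 3145 TPM and above both others when the longest transcript replaced all annotated exons. KRT5, the basal type II keratin, stood at 468 ± 11.3 TPM. Its usual partner KRT14 was missing, with 0, 0 and 1 counts. KRT15, another basal type I keratin, stood at 33.1 ± 2.5 TPM. Of the simple epithelial keratins, KRT7 reached 133 ± 4.02 TPM, whereas KRT19 had 17, 29 and 25 counts and KRT20 stayed below 1 TPM. The hyperproliferative keratins, which are switched on in wounds and psoriasis, were low, with KRT17 at 22.7 ± 1.71 TPM and KRT6A at 20.9 ± 2.02 TPM. Their partner KRT16 stood at 1.01 ± 0.26 TPM and below 1 CPM, and KRT6B and KRT6C below 1 TPM. Reads shared between the near-identical KRT6A, KRT6B and KRT6C make their split uncertain.

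The basal layer list was nearly complete, with 13 of 15 members expressed. The hemidesmosome was represented by ITGA6 at 549 ± 59.7 TPM and ITGB4 at 285 ± 20.5 TPM, the subunits of the α6β4 integrin. LAMB3 at 157 ± 15.8 TPM and LAMA3 at 35.5 ± 3.4 TPM encode laminin chains found in the ligand of that integrin. COL17A1, the hemidesmosomal collagen, reached 62.1 ± 5.56 TPM. ITGA3 and CD44 were at 264 ± 15.4 and 233 ± 24.5 TPM. The libraries of ITGB4 and ITGA3 overlapped, so their order is not fixed.

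Of 18 squamous transcription factors, 17 were expressed. SOX15 led at 215 ± 9.32 TPM, and the epithelial factors ELF3 at 86.9 ± 3.10 TPM and GRHL2 at 78.4 ± 3.85 TPM were also high. KLF4 and KLF5 were at 70.7 ± 2.05 and 70.6 ± 2.77 TPM and did not differ beyond their spread. TP63 reached 41.9 ± 0.63 TPM. ZNF750, which acts late in differentiation, was the lowest expressed member at 2.36 ± 0.63 TPM, and SOX2 had no count.

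Terminal differentiation was largely off. Only 6 of 22 suprabasal and cornified layer genes were expressed, a share of 27.3% beside 55.8% of all protein coding genes. Apart from KRT13, CALML5, a calmodulin-like protein of differentiating epidermis, stood out at 562 ± 20.4 TPM, and KRT10 reached 42.9 ± 3.31 TPM. KLK7, KRT4 and KLK5 lay between 4.47 and 7.86 TPM. IVL, which encodes the envelope protein involucrin, was at 1.71 ± 0.32 TPM and below 1 CPM. KRT2, LORICRIN, FLG and TGM3 were among the members without a count.

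Of 10 mesenchymal transition genes 5 were expressed (50%, beside 55.8% of all protein coding genes). SNAI2 at 21.7 ± 0.55 TPM, TWIST1 at 10.2 ± 0.99 TPM and SNAI1 at 6.83 ± 0.13 TPM, all transcriptional repressors linked to epithelial-mesenchymal transition, were expressed together with FN1, which encodes fibronectin, at 13.0 ± 2.24 TPM. The structural markers were near 0, with 8, 6 and 13 counts for VIM and 2, 3 and 3 counts for CDH2, the N-cadherin gene. ZEB2 passed 1 CPM but not 1 TPM, ZEB1 passed neither, and CDH11 had no count.

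Of the 71 genes marking other lineages, 5 (7.04%) were expressed and 43 had no count. The 5 were MBP at 10.8 ± 0.22 TPM, RUNX2 at 7.74 ± 0.83 TPM, MITF at 6.27 ± 0.83 TPM, COL1A1 at 2.02 ± 0.12 TPM and TUBB3 at 0.945 ± 0.17 TPM. Defining genes of those lineages were missing beside them, since the melanocyte genes TYR, TYRP1, DCT and SOX10, the fibroblast genes COL1A2, COL3A1, DCN and LUM and the neural genes CHGA, GFAP and SNAP25 had no count. No endothelial or leukocyte gene was expressed, and PTPRC and CD3E were without a count. The highest value on the endothelial, leukocyte and liver, muscle and erythroid lists was that of CD68, at 1.80 ± 0.39 TPM. Olfactory receptor genes, which are mostly low outside the nose, were read as a rough floor. They gave 0 expressed of 407, with 394 at no count and 23 counts as the highest value in any library. OR2A7 had 23, 22 and 19 counts and OR1F1 had 20, 13 and 16, so this floor was not free of repeated counts.

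**Figure D3:**
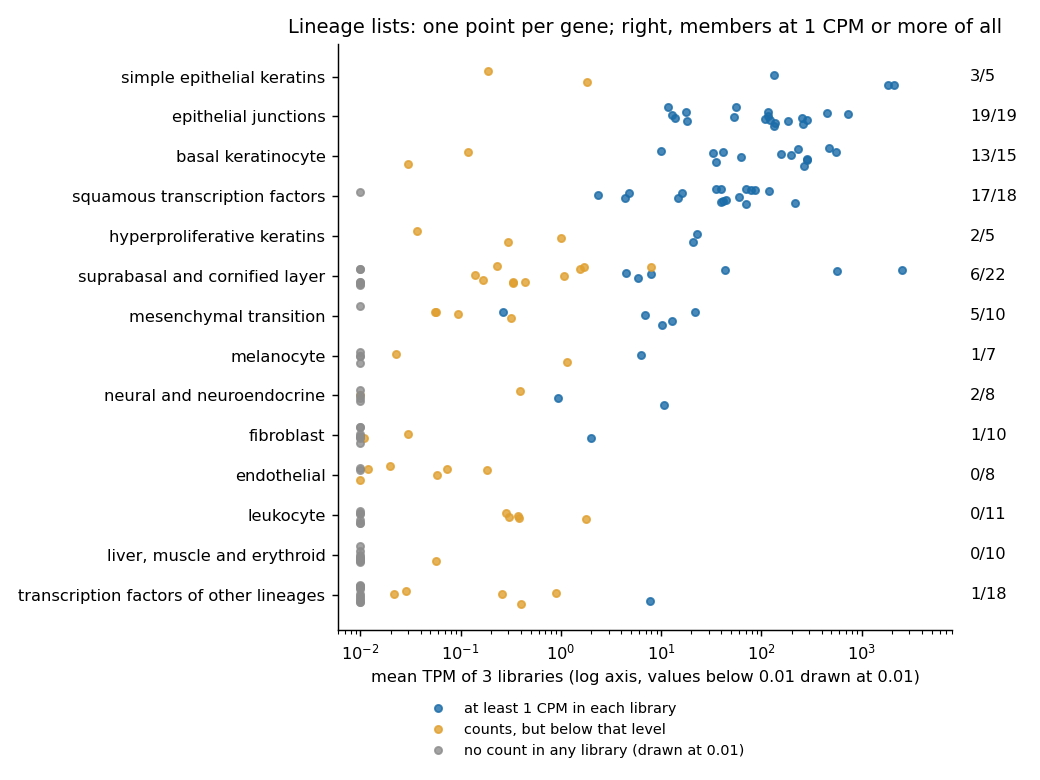
Mean TPM of the 3 parental libraries (log axis) for every member of the lineage lists, one point per gene. Blue points are expressed, orange points have counts below that level, grey points have no count and are drawn at 0.01, and the fractions on the right give the expressed members of each list. Junction (19 of 19), basal (13 of 15) and squamous transcription factor (17 of 18) lists lie to the right, while the cornified layer list (6 of 22) and the other lineages spread to the left.

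Receptor tyrosine kinases took 1.80% ± 0.14 of all counts, of which EGFR made up 1.59%. Of 58 receptors, 26 were expressed (44.8%) and 19 had no count. EGFR at 4344 TPM exceeded the second receptor, AXL, by 10.9 ± 0.99 times, or 16.1 times by the longest transcript. AXL, a receptor for GAS6 that takes part in the uptake of dead cells, stood at 398 ± 28.1 TPM. EPHA2, an ephrin receptor, followed at 206 ± 12.2 TPM. DDR1 at 136 ± 4.33 TPM, MET at 131 ± 7.97 TPM and RYK at 119 ± 5.34 TPM bind collagen, hepatocyte growth factor and Wnt respectively. The libraries of DDR1 overlapped with those of MET, and those of MET with those of RYK. The partners of EGFR were much lower, ERBB2 at 54.3 ± 2.26 TPM and ERBB3 at 26.4 ± 1.88 TPM, and ERBB4 had no count. IGF1R reached 15.5 ± 2.64 TPM. No count was found for the insulin receptor gene INSR, nor for PDGFRA, KIT, FGFR3, RET, ALK or KDR. INSR is transcribed in most cell types, and whether its 0 counts come from the cells or from the counting was not tested.

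Transcripts of ligands of the EGFR family were found in the same libraries, and ligand protein was not measured. TGFA was the highest at 45.2, 40.5 and 44.7 TPM, followed by AREG, which encodes amphiregulin, at 33.2, 34.2 and 32.8 TPM. EREG at 28.4 ± 0.99 TPM and HBEGF at 25.3 ± 2.30 TPM, encoding epiregulin and heparin-binding EGF, overlapped with each other. NRG4 at 6.91 ± 0.61, NRG1 at 6.25 ± 0.98 and BTC at 4.76 ± 0.07 TPM completed the 7 expressed members of 11. EGF itself was at 0.217 ± 0.02 TPM and below 1 CPM, NRG2 had 2 counts in all, and EPGN and NRG3 had none. The receptor exceeded its highest ligand by 99.7 ± 6.88 times in TPM, or 134 ± 9.27 times by the longest transcript.

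**Figure D4:**
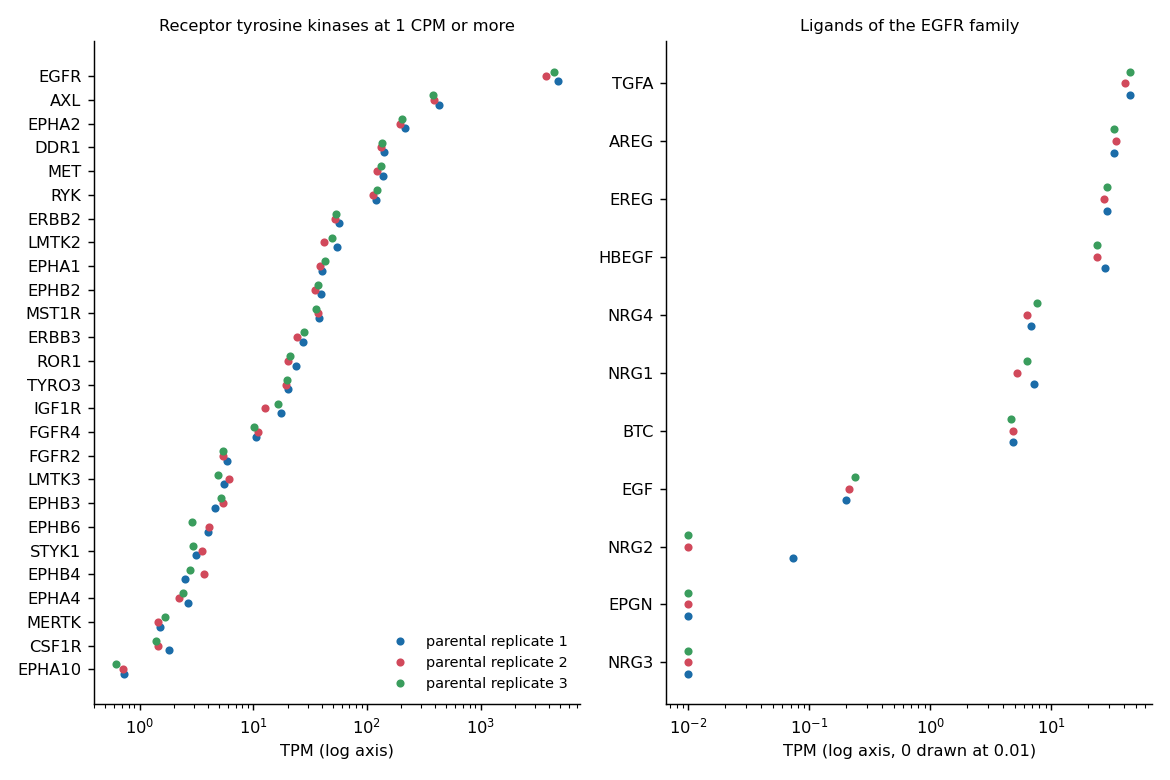
TPM on a log axis in each of the 3 parental libraries, for the 26 expressed receptor tyrosine kinases (left) and all 11 ligands of the EGFR family (right, values of 0 drawn at 0.01). By mean, EGFR lies at 4344 TPM, about a decade above AXL at 398 TPM. The means of TGFA, AREG, EREG and HBEGF lie between 25.3 and 43.5 TPM.

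Integrins beside the basal pair were ITGB1 at 224 ± 12.9 TPM, ITGB5 at 82.8 ± 2.97 TPM and ITGA5 at 58.5 ± 0.32 TPM, and 12 of 26 were expressed. ITGB3 and ITGA4, the β3 and α4 chains of platelets and leukocytes, had no count. Cytokine receptors were widely present, with 26 of 36 expressed (72.2%). TNFRSF1A, the first TNF receptor, led at 98.7 ± 5.36 TPM, ahead of IL13RA1 at 79.1 ± 4.66 TPM. IL20RB and IL6ST, the shared gp130 chain, stood at 69.3 ± 3.72 and 68.6 ± 3.76 TPM and overlapped. TNFRSF1B, IL2RA, IL10RA and CSF3R were without a count. Of 12 receptors of the TGF-β family 9 were expressed, led by ACVR1B at 29.0 ± 1.36 TPM and TGFBR2 at 25.5 ± 1.14 TPM. Of 48 nuclear receptors 24 were expressed. NR2F2 at 152 ± 10.2 TPM and NR2F6 at 122 ± 6.30 TPM, orphan receptors of the COUP family, were the highest, followed by the retinoic acid receptor RARG at 93.8 ± 2.16 TPM. The glucocorticoid receptor gene NR3C1 stood at 44.6 ± 2.52 TPM, and PGR and RARB had no count.

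Of 185 secreted factors 81 were expressed (43.8%, beside 55.8% of all protein coding genes). The interleukin-1 group stood out among 39 interleukins and colony-stimulating factors, of which 9 were expressed. IL1A and IL1B, alarm cytokines of damaged epithelium, stood at 68.3 ± 4.27 and 47.2 ± 4.93 TPM, and their natural antagonist IL1RN at 25.5 ± 1.98 TPM. LIF at 42.6 ± 2.28 TPM, CSF1 at 37.1 ± 0.13 TPM and IL18 at 31.5 ± 2.97 TPM made up the rest of the leading members. Of 34 chemokines only CXCL16, which is also a membrane-bound scavenger receptor, was expressed, at 86.3 ± 5.29 TPM. CCL5 was at 2.76 ± 0.58 TPM and CXCL8 at 0.465 ± 0.25 TPM, both below 1 CPM, and 18 chemokines, CCL2 and CXCL12 among them, had no count.

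Growth factors were led by HDGF at 1102 ± 66.5 TPM and MIF at 947 ± 48.3 TPM, widely expressed factors of which MIF is also a cytokine. GRN at 251 ± 10.5, MDK at 150.5 ± 9.55, CCN1 at 149.7 ± 20.8 and TGFB1 at 134 ± 11.0 TPM came next, and the last 3 overlapped in order. VEGFA, the main angiogenic factor, reached 57.3 ± 1.58 TPM. HGF, IGF1, FGF7 and FGF10, which in skin come mostly from mesenchyme, had no count. CCN2 also had 0 counts, and whether this comes from the cells or from the counting was not tested. Of 29 matrix genes 20 were expressed, with THBS1, which encodes thrombospondin, at 248 ± 43.5 TPM and AGRN, which encodes the proteoglycan agrin, at 213 ± 13.7 TPM. COL5A1 and SPARC had no count, and for SPARC it was likewise not tested whether this comes from the cells or from the counting. Among proteases and their inhibitors the inhibitor TIMP3 was highest at 979 ± 46.5 TPM and the kallikrein protease KLK6 second at 816 ± 12.9 TPM. SPINT2, an inhibitor of membrane serine proteases, and CSTB, which blocks cathepsins, followed at 326 ± 11.3 and 304 ± 7.75 TPM. MMP3 and MMP10 had no count, and MMP1 and MMP9 stayed below 1 CPM, whereas the membrane-anchored MMP14 reached 108 ± 3.52 TPM.

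MDM2 and MDM4, negative regulators of the p53 pathway, stood at 48.4 ± 3.48 and 14.5 ± 1.62 TPM. TP73 had 0, 2 and 1 counts. TP63 is described among the squamous transcription factors above. The p53 target CDKN1A, which encodes p21, was expressed at 7.51 ± 1.02 TPM. CDKN2A and CDKN2B, neighbouring genes for p16 and p15 that inhibit CDK4 and CDK6, had no count, and neither had CDKN1C. RB1, the substrate of those kinases, reached 76.8 ± 1.19 TPM, and NF2 was the highest of the 18 inhibitors and tumour suppressors at 112 ± 7.99 TPM.

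Proliferation genes were expressed almost throughout, 27 of 28. PCNA, the sliding clamp of DNA replication, led at 1467 ± 51.6 TPM, followed by CCND1 at 807 ± 61.6 TPM and CCNB1 at 651 ± 35.4 TPM, which encode cyclins D1 and B1. CCND2 had no count. MKI67, which marks cycling cells and has a long transcript, varied from 464 TPM in replicate 1 to 271 TPM in replicate 2. Glycolytic genes took 1.78% ± 0.03 of the counts, with 19 of 22 expressed. GAPDH at 7630 ± 250 TPM, ENO1 at 2354 ± 93.1 TPM and LDHA at 1689 ± 74.0 TPM led, and LDHA exceeded LDHB 2.25 ± 0.03 times. PKLR, the liver form of pyruvate kinase, and the glucose transporter SLC2A3 were without a count, whereas SLC2A1 reached 90.6 ± 2.61 TPM.

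Antigen presentation was of class I only. B2M stood at 978 ± 67.1 TPM and HLA-C at 977 ± 65.9 TPM, ahead of HLA-E at 410.2 ± 24.3 and HLA-B at 217 ± 12.2 TPM. Reads of these closely related genes can be misassigned, so their order is uncertain. CD74 and the class II genes HLA-DRA, HLA-DRB1, HLA-DPB1, HLA-DQA1 and HLA-DQB1 had no count, and CD274, which encodes PD-L1, reached 10.4 ± 1.07 TPM.

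The study is concerned with how cells engulf their neighbours, so genes of cell engulfment and actomyosin were read in the parental line. Of 30 genes 21 were expressed. EZR, which links the membrane to actin, was the highest at 1452 ± 102 TPM, followed by the myosin light chain MYL12B at 794 ± 25.5 TPM and the heavy chain MYH9 at 456 ± 82.6 TPM. RHOA and RAC1, the small GTPases that drive contraction and protrusion, stood at 353 ± 15.7 and 341 ± 12.4 TPM and overlapped. The kinases ROCK1 and ROCK2 were at 39.3 ± 3.67 and 38.9 ± 3.24 TPM. Among receptors for dying cells AXL was high, and TYRO3 at 19.8 ± 0.31 TPM and MERTK at 1.55 ± 0.12 TPM were lower. The integrin chains ITGB5 and ITGAV of the same list stood at 82.8 ± 2.97 and 34.5 ± 2.19 TPM. STAB1, STAB2, TIMD4, HAVCR1 and ITGB3 had no count.

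All 11 genes on a list drawn from those the study examined further were expressed in the parental line. Most were picked by the study from this series, so their presence here is not independent. Behind RHOA, CALML3 stood at 99.6 ± 7.22 TPM and VGLL1 at 90.9 ± 6.38 TPM, and these overlapped. ANO1 at 56.8 ± 4.33, EMP3 at 34.0 ± 3.57, IL7R at 28.7 ± 1.15, SPOCK1 at 22.7 ± 1.27 and SH3BGRL at 15.1 ± 0.98 TPM formed a descending series without overlap. PLXND1 at 11.9 ± 1.28, SATB1 at 3.26 ± 0.22 and RSAD2 at 1.70 ± 0.16 TPM closed it.

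The neighbourhood of EGFR on chromosome 7 was read because EGFR is known to be amplified in A431. Within 2 Mb on either side, 18 protein coding genes including EGFR were measured, of which 10 were expressed and 5 had no count. LANCL2 (chr7:55365337-55433737, plus strand), which starts 154 kb past the end of EGFR and encodes a lanthionine synthetase-like protein, had 799, 694 and 768 TPM. VOPP1, the next gene at 224 kb, stood at only 41.5 ± 1.11 TPM, 18.1 ± 0.87 times lower than LANCL2 by all exons and 11.96 times by the longest transcript. SEC61G, 259 kb before EGFR and a subunit of the protein translocation channel, was at 71.9 ± 0.78 TPM. Farther away, CCT6A stood at 684 ± 31.1 TPM and CHCHD2 at 598 ± 34.1 TPM, at 840.1 and 889.9 kb, which were chosen after their values were seen. Between these 2 genes lay SUMF2 at 66.2 ± 3.92 TPM and PHKG1 at 0.62 ± 0.28 TPM. The 9 CCT chaperonin genes, of which CCT6A is a member, had a median of 594 TPM. EGFR-AS1, annotated on the opposite strand inside EGFR, had 2, 1 and 7 counts, and VSTM2A and PSPHP1 had none. Without the strand setting of the counting, reads of EGFR and of its antisense gene cannot be told apart. Copy number was not measured here.

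**Figure D5:**
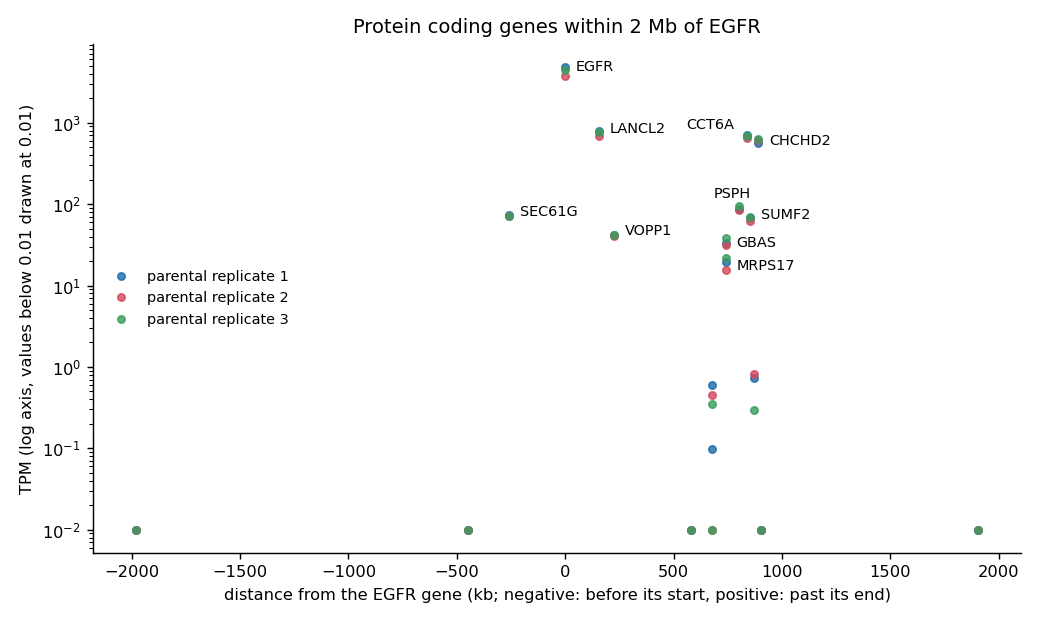
TPM on a log axis of the 18 protein coding genes within 2 Mb of EGFR, in each parental library, against the distance from EGFR in kb (values below 0.01 drawn at 0.01). By mean, EGFR and LANCL2 lie at 4344 and 754 TPM, VOPP1 and SEC61G at 41.5 and 71.9 TPM, and CCT6A and CHCHD2 at 684 and 598 TPM.

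The most abundant long noncoding RNA was UCA1 (chr19:15828206-15836328, plus strand), a transcript known from bladder carcinoma, at 780.2, 809.5 and 810.4 CPM. NORAD at 529.7 ± 16.3 CPM, LRRC75A-AS1 at 412 ± 22.9 CPM and FGD5-AS1 at 369.6 ± 18.2 CPM followed, then NEAT1, the scaffold of paraspeckles, at 202 ± 20.04 CPM. SNHG16, OIP5-AS1, RP11-54H7.4 and SNHG3 lay between 107 and 137 CPM. MIR205HG, the host transcript of the squamous microRNA miR-205, closed the first 10 at 97.2 ± 0.20 CPM. Poly(A) selection leaves out noncoding RNAs without a tail.

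Among cancer-testis genes, which are normally restricted to germ cells, a single gene was expressed. Of 71 genes of the MAGEA, MAGEB, MAGEC, GAGE, PAGE, XAGE, SSX, CT45A, CTAG and PRAME families, 62 had no count and 1 was expressed. MAGEA4 (chrX:151912495-151925171, plus strand) had 10625, 11018 and 9055 counts, or 536 ± 9.59 TPM. PRAME, the next highest by CPM, had 25, 21 and 8 counts, PAGE2B had 1, 1 and 2, and MAGEA3, a close relative of MAGEA4, had 1 count in all. Reads shared between close relatives can be misassigned or left out, and the multimapper setting is not given. Genes without a count in these families may therefore still have been transcribed.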

How the data were processed

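RNA-seq was performed by the authors on strand-specific poly(A) libraries with paired 75 bp reads. Reads were checked with FastQC, aligned with STAR 2.5.1b to GRCh38 and counted with featureCounts on an Ensembl annotation, and the authors deposited raw counts per gene. Strand and multimapper settings are not given in the sources used here. The 6 columns of other groups were not used, and no comparison or test was made. CPM used the library total. TPM used the union of exons in GENCODE release 44 (GRCh38), which differs from the authors' annotation, so that 1103 of 58051 genes, with 0.067% of counts, had no length. edgeR 4.0.16 gave the coefficient of variation from genes with at least 10 counts in each library, and was tested on simulated data. DESeq2 1.42.0 size factors were an alternative. Named genes were the 25 highest by CPM, the 10 highest long noncoding RNAs, up to 6 highest and 6 without a count per list, all members of short lists, the 10 most variable and the highest cancer-testis genes. Other list members were named for their known role after their values were seen. The lists were chosen with earlier results of these data known. Cancer-testis genes were matched by symbol, leaving out similarly named genes of other function. Some list members that were counted are not reported here by name.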

Additional observations from a re-analysis of the deposited data

How the results depend on the processing

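Of 51 recomputed values of the 10 summary measures, 46 stayed within the allowed spread or within 1.5 times the reported count. For shares of counts that spread was the SD between libraries. Leaving out a library cannot move the mean share of a fixed gene set by that much. Those values, for mitochondrial and ribosomal protein genes, therefore could not have moved. For the biological coefficient of variation the spread was that of its own leave-one-out values. The 10 genes of highest TPM, a different and mostly mitochondrial set, held 8.92% of the summed TPM, whereas the 10 of highest count held 6.14% of the counts. Mitochondrially encoded genes held a mean of 8.44% of the summed TPM and 1.90% of the counts, and both means include replicate 2, which stood apart at 2.70% of the counts. The number of other lineage genes expressed rose from 5 to 8 at 10 counts in each library and to 13 at 0.1 CPM. Leaving out a parental library in turn moved the biological coefficient of variation between 0.0492 and 0.0651, the highest without replicate 3. Of 18 genes followed with the longest transcript as length, 17 moved by more than their spread, among them AXL to 0.768 times and KRT8 to 1.70 times the reported value, so TPM orders of genes within a factor of this size are uncertain. Depth limits genes without a count to a floor of 3 counts per library. No paired analysis was possible because a single group was described.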

Other observations

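HOX genes, which mark position along the body axis, were looked at after the values were seen. Of 39 genes in the 4 clusters, 21 were expressed. HOXA on chromosome 7 was on almost throughout, with 10 of 11 genes expressed, led by HOXA9 at 53.8 ± 1.06 TPM and HOXA10 at 36.8 ± 1.60 TPM, whereas HOXA13 had 10, 13 and 11 counts. In HOXB, HOXB7 at 91.2 ± 2.16 TPM was the highest of all 39. HOXC13, a regulator of hair and nail keratins, stood at 46.8 ± 1.91 TPM. HOXD on chromosome 2 was nearly silent, with HOXD8 at 5.47 ± 0.82 TPM as the only expressed gene of 9 and 5 genes without a count.

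Hair-type keratins were also present, again named after their values were seen. KRT81 had 1566, 1520 and 1583 TPM, the fourth-highest keratin of 55, and KRT86 and KRT83 stood at 32.7 ± 0.49 and 7.25 ± 1.14 TPM. These genes are close relatives in a shared cluster on chromosome 12, so reads can be split between them with error. KRT80, an epithelial keratin of the same cluster, reached 593 ± 19.3 TPM. Of the genes for keratin-associated proteins, which pair with hair keratins in the hair shaft, 0 of 94 were expressed and 89 had no count. The highest of them, KRTAP4-1, had 8, 9 and 10 counts.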
